A study of Mus musculus with 15 samples.

Results

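The 9 genes described here encode the CD3 chains of the T cell receptor complex (*Cd3d*, *Cd3e*, *Cd3g* and *Cd247*), the surface proteins CD4 and CD5 (*Cd4* and *Cd5*), and the first kinases and the adaptor of T cell receptor signalling (*Lck*, *Zap70* and *Lat*). They were taken by symbol, and all 9 were found among the 23529 genes kept from one expression table and the 23846 genes of the other. The study profiled type 2 innate lymphoid cells (ILC2), lymphocytes that carry no rearranged antigen receptor, from mouse lung, and regulatory T (Treg) cells from mouse spleen, by RNA-seq. One table holds 2 libraries of ILC2 from mice injected with IL-33 (ILC2IL-33) and 3 of ILC2 from mice injected with the vehicle PBS (ILC2PBS). The other holds 10 libraries from 10BiTFoxp3GFP mice, in which regulatory sequence of *Il10* drives the surface protein Thy-1.1 from a transgene and GFP marks *Foxp3*, and all of these mice received IL-33. They comprise 3 libraries of Thy-1.1+ ILC2 (ILC210), 3 of Thy-1.1- ILC2 (ILC2act), 2 of IL-10+ Treg cells (Treg10+) and 2 of IL-10- Treg cells (Treg10-). Over the whole study the mice were adults of either sex. Cells were pooled from several mice, and Thy-1.1 reports the transgene rather than IL-10 protein. The paper names wild-type and 10BiTFoxp3GFP mice as sources of lung ILC2. It does not say outright which gave the IL-33 and PBS libraries, where the name of an ILC2IL-33 library carries the tag WT. Mouse genotype may therefore differ between the tables.

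The ILC2 gate excluded cells that stained for CD3ε, CD4, CD8α or the γδ T cell receptor, so *Cd3e* and *Cd4* encode proteins used to choose these cells, and their low mRNA in ILC2 is not a finding. Tissue, cell type and gate all differ between ILC2 and Treg libraries and cannot be told apart. In the markers of the labelled cells, *Foxp3*, the transcription factor that defines Treg cells, lay at 0.0173 to 0.0955 FPKM (fragments scaled by the length of the transcript and the reads mapped) in the 6 ILC2 libraries of 10BiTFoxp3GFP mice and at 88.4 to 112 FPKM in the 4 Treg libraries. *Gata3*, which ILC2 require, lay at 271 to 408 FPKM in those ILC2 and at 59.4 to 115 FPKM in Treg cells. *Foxp3* separated the libraries as labelled. Over the libraries of 10BiTFoxp3GFP mice the Y-linked *Ddx3y* read 15.3 to 25.6 FPKM. *Xist*, a transcript of female cells, read at most 0.0051 FPKM there, so these libraries read as male. In the other table *Foxp3* lay at 0.296 to 0.766 FPKM, and *Gata3* at 165 and 180 FPKM in ILC2IL-33 and at 89.2 to 125 FPKM in ILC2PBS. Relative depth, read from the spacing of the lowest values, ranged from 74.8% to 100% of the deepest library in the IL-33 and PBS table and from 36.1% to 100% in the other, where the shallowest was Treg10+ 06. Between 10514 and 12333 genes lay above 1 FPKM in a library. The number of reads behind a value is unknown, so no counting interval can be given for it.

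In T cells the CD3γ, CD3δ and CD3ε chains form γε and δε pairs that, with a ζ homodimer encoded by *Cd247*, carry the signal of the antigen receptor into the cell. LCK phosphorylates tyrosine motifs in these chains, ZAP70 docks on them and phosphorylates the adaptor LAT, and LAT gathers the enzymes that start calcium and Ras signalling. CD4 brings LCK to the receptor, whereas CD5 dampens the signal. NK cells, which also lack an antigen receptor, use the ζ chain with other receptors.

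*Cd3g*, *Cd3d* and *Cd3e* are neighbours on mouse chromosome 9 (GRCm38.p6, RefSeq). *Cd3g* lies at chr9:44969572-44980431 on the minus strand and *Cd3d* at chr9:44981769-44987052 on the plus strand, so both are read outwards from a gap of 1337 bases. *Cd3e* lies at chr9:44998735-45009663 on the minus strand, 11682 bases beyond *Cd3d*. *Cd247* is on chromosome 1, *Zap70* also on chromosome 1, *Lck* on chromosome 4, *Cd4* on chromosome 6, *Lat* on chromosome 7 and *Cd5* on chromosome 19. Because the values of these 3 neighbours differed so much in ILC2, the 250 bases before the transcript start in the RefSeq promoter table are shown, 5′ to 3′ on the strand of the gene, with capitals for the motifs searched on either strand. That start lies inside the outer bounds given above for *Cd3d* and *Cd3e*, so the ends of these windows overlap the annotated gene.
Cd3g, chr9:44980432-44980681, minus strand: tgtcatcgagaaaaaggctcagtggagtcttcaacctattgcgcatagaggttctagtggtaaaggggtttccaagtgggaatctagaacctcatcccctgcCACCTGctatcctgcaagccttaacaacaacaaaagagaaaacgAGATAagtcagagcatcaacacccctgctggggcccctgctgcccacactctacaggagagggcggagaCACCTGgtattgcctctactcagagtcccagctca
Cd3d, chr9:44981536-44981785, plus strand: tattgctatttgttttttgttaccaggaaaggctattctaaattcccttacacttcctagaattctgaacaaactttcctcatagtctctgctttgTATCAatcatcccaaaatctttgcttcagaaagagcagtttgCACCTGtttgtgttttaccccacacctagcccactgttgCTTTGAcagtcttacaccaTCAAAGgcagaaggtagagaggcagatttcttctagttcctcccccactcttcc
Cd3e, chr9:45009612-45009861, minus strand: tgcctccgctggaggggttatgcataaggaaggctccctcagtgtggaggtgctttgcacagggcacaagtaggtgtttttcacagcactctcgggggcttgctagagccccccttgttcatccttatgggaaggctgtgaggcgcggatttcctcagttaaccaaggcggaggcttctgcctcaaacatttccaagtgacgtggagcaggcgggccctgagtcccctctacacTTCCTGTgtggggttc
For GATA factors the letters searched were TGATA or, in the other form of this motif, AGATA. For RUNX factors they were TGTGGT. For TCF factors they were CTTTGA. For ETS factors they were ACCGGAA or, in the other form of this motif, ACAGGAA. For the E-box they were CAGGTG or, in the other form of this motif, CAGCTG. For the TATA box they were TATAAA. No such motif shares letters with another in these windows. The *Cd3g* window held 1 GATA and 2 E-box matches. The *Cd3d* window held 1 GATA, 2 TCF and 1 E-box match. The *Cd3e* window held 1 ETS match alone. Of 32851 RefSeq promoters of the same length, 40.0% held the GATA letters, 27.7% the E-box, 14.0% the RUNX, 13.8% the TCF, 12.4% the TATA and 9.84% the ETS letters, so such matches are common, and a match is a description of the letters, not a site of binding.

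In ILC2 the CD3 chain transcripts were far from even, with *Cd3g* well above the others. In ILC210 *Cd3g* made up 66.1% to 80.1% of the summed FPKM of the 4 CD3 chain genes, and in ILC2act 84.3% to 86.6%. In Treg10+ cells its share was 30.0% and 30.1%, and in Treg10- cells 34.0% and 32.2%. The other ILC2 table, read on another sequencer, gave 79.9% and 86.3% in ILC2IL-33 and 77.1% to 81.7% in ILC2PBS. No ILC2 library of either table had a share of *Cd3g* near that of the Treg libraries.

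**Figure D1:**
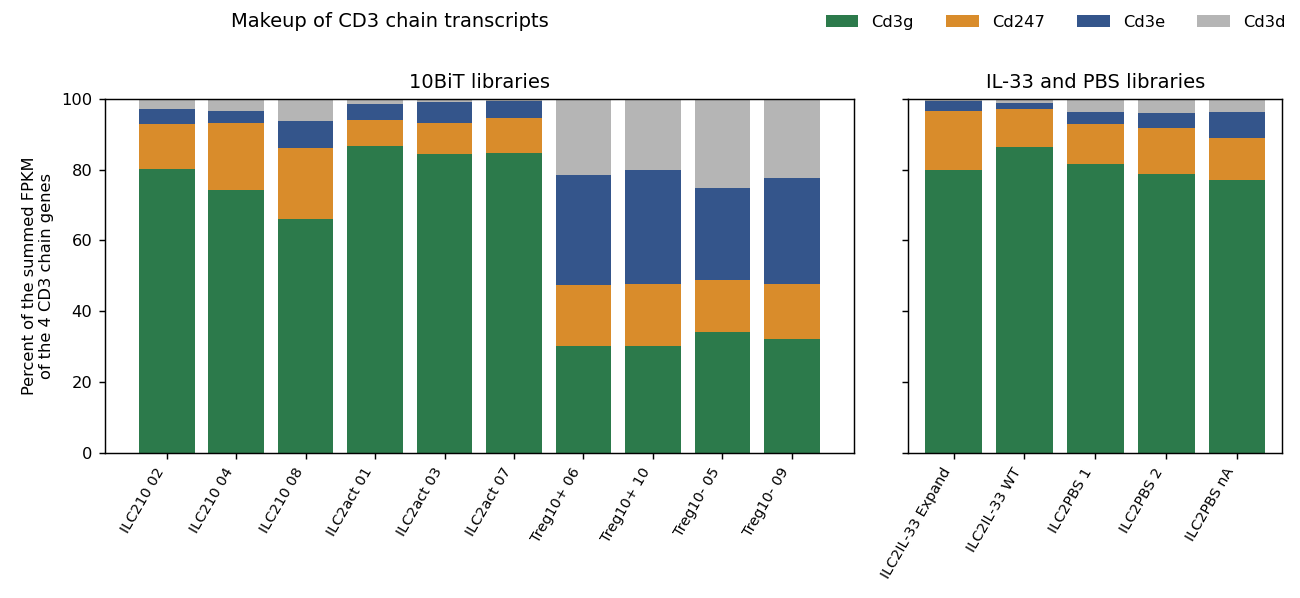
Share of each CD3 chain gene (percent, y axis) in the summed FPKM of *Cd3g*, *Cd247*, *Cd3e* and *Cd3d*, as 1 stacked bar per library (x axis). *Cd3g* takes 66.1% or more of each ILC2 bar and 30.0% to 34.0% of each Treg bar, where *Cd3d* and *Cd3e* fill most of the rest.

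The same difference was measured as the log2 ratio of one chain to another within a library, with FPKM below 1 set to 1. *Cd3g* over *Cd3e* averaged 3.98 ± 0.47 in ILC2 and 0.09 ± 0.22 in Treg cells (SD, n = 6 and 4 libraries), a difference of 3.90. As a plain ratio it was 18.0, 19.9 and 8.50 in ILC210 and 19.6, 14.3 and 18.3 in ILC2act, against 0.970 and 0.936 in Treg10+ and 1.31 and 1.07 in Treg10-. The ILC2 and Treg values did not overlap. *Cd3g* over *Cd3d* averaged 5.25 ± 1.40 in ILC2 and 0.51 ± 0.07 in Treg cells, a difference of 4.74, and *Cd247* over *Cd3e* averaged 1.29 ± 0.62 in ILC2 and -0.86 ± 0.07 in Treg cells, a difference of 2.15. Each of these 3 ratios gave p = 0.00952 in an exact two-sided permutation test, the smallest that 6 against 4 libraries allow, and 0.0127 after Benjamini-Hochberg adjustment over the 4 ratios tested. *Cd3d* over *Cd3e* averaged -1.27 ± 1.25 in ILC2 and -0.42 ± 0.27 in Treg cells and gave p = 0.295 in the same exact test (adjusted 0.295). This last ratio differed in opposite directions in the 2 pairs of groups, at 0.41 for ILC210 minus Treg10+ and -2.11 for ILC2act minus Treg10-. In ILC210 04 both genes were under 1 FPKM, so the floor set its ratio to 1. *Cd3d* was also floored in ILC210 02 and ILC2act 07. The test takes the libraries as independent, although ILC210 and ILC2act libraries with consecutive numbers varied together. CD3ε was part of the gate, and the part of the gate in the ratios to *Cd3e* was not tested. The gate does not name CD3δ, and its part in the ratio of *Cd3g* to *Cd3d* was not tested either. *Cd3d* lay near the floor of 1 FPKM in ILC2, at 0.723 to 1.99 FPKM in ILC210 and 0.872 to 1.41 FPKM in ILC2act.

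In the table of IL-33 and PBS libraries, read for itself, *Cd3g* over *Cd3e* was 28.2 and 52.2 in ILC2IL-33 and 22.6, 19.0 and 10.7 in ILC2PBS. *Cd3g* over *Cd3d* was 58.6 and 67.4 in ILC2IL-33 and 23.0, 19.4 and 20.6 in ILC2PBS. The groups did not overlap in either ratio, which with so few libraries is a description and was not tested. *Cd3g* was above both other chains in all 5 libraries.

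ILC210 had less mRNA of 3 of the 4 CD3 chain genes than ILC2act, the comparison that asks how ILC2 with an active *Il10* reporter differ from other activated ILC2. *Cd3g* was 4.81-fold lower, *Cd3e* 4.03-fold lower and *Cd247* 2.15-fold lower, while *Cd3d* stayed near the limit of 1 FPKM in both. *Zap70* and *Lat* were lower by less than the fold required, and *Lck* did not pass the test. A gene was called where the adjusted p of limma (Benjamini-Hochberg over all genes tested) was under 0.05 and the fold at least 2, on log2 FPKM with values under 1 set to 1, a scale that understates changes below 1 FPKM. Of the 9 genes, 7 were tested, 3 were called lower and none higher, where 1.05% of the 11564 genes tested were called lower and 9.24% higher. At an unadjusted p under 0.05 no gene of the 9 was higher and 5 were lower, and all genes were not counted at this limit. The median log2 fold change of the 7 was -0.61, against 0.03 for all genes tested.

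*Cd3g* read 21.2, 19.9 and 21.5 FPKM in ILC210 and 85.2, 97.4 and 121 FPKM in ILC2act. The 2 groups were far apart, and the ILC210 libraries lay within 2 FPKM of each other. The log2 fold change was -2.26 (SE 0.13, 95% interval -2.56 to -1.96, limma adjusted p = 1.45e-05). *Cd3e* read 1.18, 0.921 and 2.53 FPKM in ILC210 and 4.35, 6.82 and 6.62 FPKM in ILC2act. All ILC210 values were below all ILC2act values, but both groups were close to the limit of 1 FPKM. Its log2 fold change was -2.01 (SE 0.36, interval -2.83 to -1.20, limma adjusted p = 0.00481). In ILC210 only the values 1.18 and 2.53 FPKM exceeded 1 FPKM, so *Cd3e* met the filter on low values through ILC2act. Its call is therefore a description, and it was not called without that filter.

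*Cd247*, the ζ chain, read 3.36, 5.07 and 6.52 FPKM in ILC210 and 7.41, 10.3 and 14.5 FPKM in ILC2act. The highest ILC210 library was just below the lowest ILC2act library. Its log2 fold change was -1.11 (SE 0.30, interval -1.79 to -0.43, limma adjusted p = 0.0365), and the call was lost on leaving out ILC210 02, ILC210 04, ILC2act 03 or ILC2act 07 (limma adjusted p = 0.0918, 0.0825, 0.104 and 0.138). *Cd3d* read 0.723, 0.930 and 1.99 FPKM in ILC210 and 1.41, 1.05 and 0.872 FPKM in ILC2act, and the groups overlapped. Its log2 fold change was 0.14 (interval -0.60 to 0.88, limma adjusted p = 0.838), and at these low values a change in either direction is compressed by the floor. In the annotation of this build *Cd3g* and *Cd3d* overlap no other gene. *Cd3e* overlaps 2 genes, 1 of them antisense, and *Cd247* overlaps 6 genes, among them *Pou2f1* on the other strand. The library kit is not described as keeping strand, so reads of such genes cannot be told apart.

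The coreceptor and CD5 were near 0 in both. *Cd4* read 0.0806, 0.166 and 0.749 FPKM in ILC210, and 0, 0.107 and 0 FPKM in ILC2act. *Cd5* read 0.250, 0.258 and 0.580 FPKM in ILC210 and 0.390, 0.111 and 0.329 FPKM in ILC2act. Neither reached 1 FPKM in any ILC2 library of this table, and neither was tested.

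The kinases and the adaptor were well expressed in ILC2. *Zap70*, the kinase that docks on CD3 chains, read 68.4, 61.7 and 56.2 FPKM in ILC210 and 93.3, 96.6 and 92.8 FPKM in ILC2act. The groups did not overlap, and the log2 fold change of -0.61 (SE 0.10, limma adjusted p = 0.00249) was under the fold of 2. *Lat*, the adaptor, read 64.2, 70.7 and 58.4 FPKM in ILC210 and 80.1, 100 and 95 FPKM in ILC2act, again without overlap and with a log2 fold change of -0.51 (SE 0.12, limma adjusted p = 0.0168). *Lck*, the first kinase, read 58.1, 45.2 and 44.0 FPKM in ILC210 and 59.5, 50.8 and 52.1 FPKM in ILC2act. These groups overlapped, with a log2 fold change of -0.15 (interval -0.44 to 0.14, limma adjusted p = 0.528), an interval that leaves out changes of the size of *Zap70* or *Cd3g*.

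**Figure D2:**
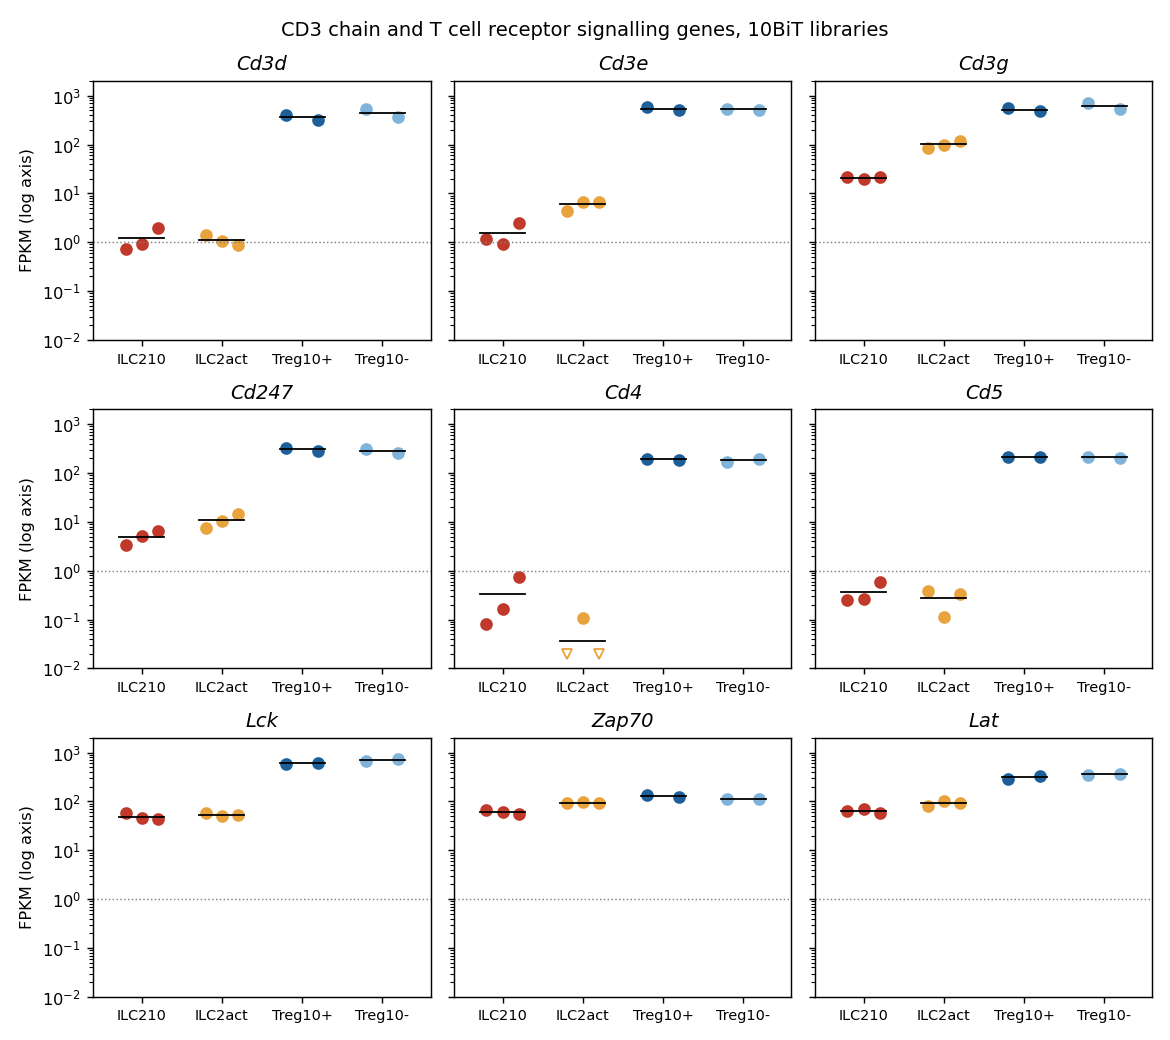
FPKM (log axis) of the 9 genes in each library of ILC210, ILC2act, Treg10+ and Treg10- (x axis), with points for libraries, a line for the group mean, open triangles for values of 0 drawn at the bottom, and a dotted line at 1 FPKM. *Cd3g* forms steps at 20.9, 101 and 520 to 625 FPKM, whereas *Cd3d*, *Cd4* and *Cd5* are near or under 1 FPKM in ILC2 and above 170 FPKM in Treg cells.

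Markers of other cells moved with the same groups. The summed FPKM of 6 epithelial genes was 7030 to 15000 in ILC210 and 518 to 988 in ILC2act, and that of 8 macrophage and monocyte genes was 615 to 1420 in ILC210 and 49.4 to 79.4 in ILC2act. That of 6 endothelial genes was 302 to 411 in ILC210 and 49.7 to 56.8 in ILC2act, and that of 5 B cell genes 123 to 198 in ILC210 and 48.9 to 77.7 in ILC2act. Genes general to leukocytes summed to 4490 to 5520 FPKM in ILC210 and 5510 to 5880 FPKM in ILC2act. Scaling each library to these leukocyte genes moved the median of all genes to 0.27 and left *Cd3g* (-2.02, limma adjusted p = 4.85e-05) and *Cd3e* (-1.80, limma adjusted p = 0.0155) called, but not *Cd247* (log2 fold change -0.86, limma adjusted p = 0.0997). The CD8 T cell genes were near 0, at 0.329 to 0.807 in ILC210 and 0.294 to 0.579 in ILC2act. The part of the other lung cells in the CD3 chain values was not tested further. In bulk RNA, fewer cells that hold a transcript and less of it in each cell cannot be told apart.

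The other genes of the pathway, 46 in all, moved little between ILC210 and ILC2act: of 44 tested, 1 was called higher, 1 lower and 42 were not called, with a median of -0.11. The one called lower was *Sit1*, a transmembrane adaptor that restrains T cell receptor signalling, at 0.700, 0.657 and 0.667 FPKM in ILC210 and 8.05, 9.20 and 7.38 FPKM in ILC2act (log2 fold change -3.03, SE 0.18, limma adjusted p = 1.53e-05). All ILC210 values were under 1 FPKM, so the floored fold understates the difference. *Sit1* passed the filter on low values only through ILC2act, so its call is a description. The one called higher was *Syk*, the relative of *Zap70* used by B cells and myeloid cells, at 6.60 ± 3.58 FPKM in ILC210 and 2.13 ± 0.881 FPKM in ILC2act (SD, n = 3 each, log2 fold change 1.56, limma adjusted p = 0.0361), in libraries whose macrophage and B cell genes were also higher in ILC210. The part of those cells in the *Syk* value was not tested. The most highly expressed genes that were not called were *Sla*, an adaptor that lowers receptor levels, at -0.22 (limma adjusted p = 0.201), and *Ptprc*, which encodes CD45, at -0.26 (limma adjusted p = 0.110).

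**Figure D3:**
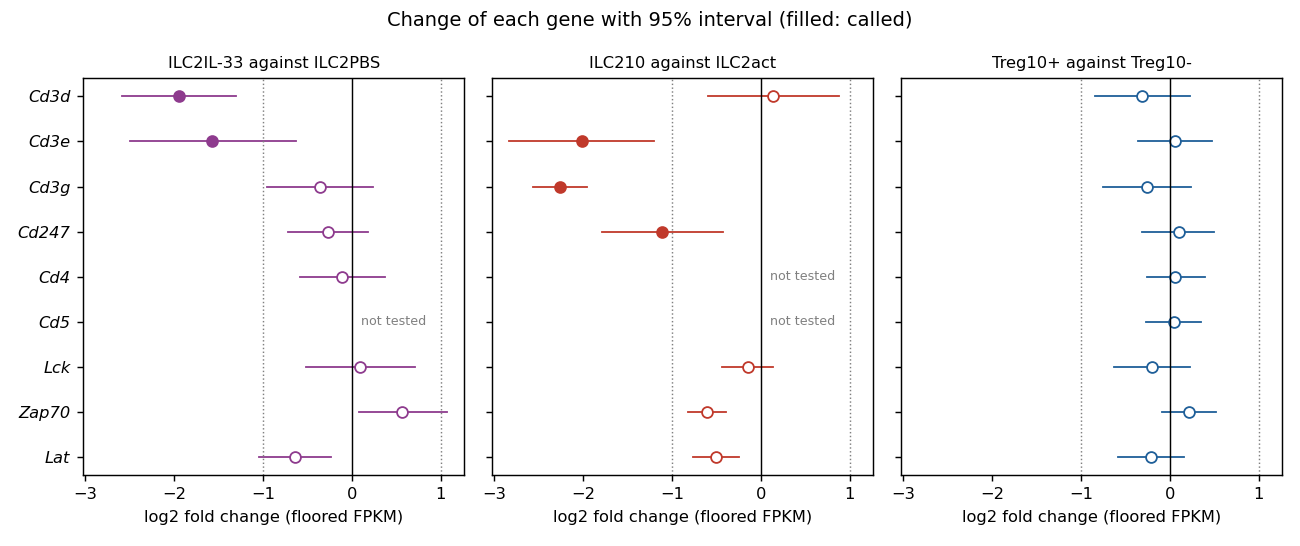
Log2 fold change on floored FPKM (x axis) with its 95% interval for each gene in ILC2IL-33 against ILC2PBS, ILC210 against ILC2act and Treg10+ against Treg10-. Filled points were called. *Cd3g* stands at -2.26 in ILC210 against ILC2act, at -0.36 in ILC2IL-33 against ILC2PBS and at -0.26 in Treg10+ against Treg10-.

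Among Treg cells the reporter went with no change in these genes that passed the test. All 9 were tested with limma and 0 were called, where 0.904% of the 10837 genes tested were called higher and 0.461% lower. None had an unadjusted p under 0.05, and the per-gene equal-variance test also called 0. The log2 fold changes ranged from -0.31 (*Cd3d*) to 0.21 (*Zap70*), with a median of 0.04 against 0.01 for all genes tested. *Cd3g* read 562 and 478 FPKM in Treg10+ and 709 and 541 FPKM in Treg10-, with an interval of -0.75 to 0.24 for its log2 fold change. *Cd3d* read 403 and 317 FPKM in Treg10+ and 525 and 373 FPKM in Treg10-, and these groups overlapped too. *Cd3e* read 580 and 511 FPKM in Treg10+ and 543 and 505 FPKM in Treg10- and its interval ran from -0.36 to 0.47. With 2 libraries a group, the intervals of all 9 genes excluded a fold of 2 in either direction.

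The other 6 genes differed as little in fold. Values of *Lck*, *Lat*, *Zap70* and *Cd5* did not overlap between Treg10+ and Treg10-, which with so few libraries is a description. How many of all genes separate in this way was not counted. *Cd247* read 328 and 281 FPKM in Treg10+ and 311 and 259 FPKM in Treg10-. *Lck* averaged 608 ± 16.0 FPKM in Treg10+ and 699.6 ± 42.3 FPKM in Treg10-, *Lat* 314 ± 31.7 FPKM in Treg10+ and 362 ± 14.7 FPKM in Treg10-, and *Zap70* 129 ± 8.78 FPKM in Treg10+ and 111 ± 2.02 FPKM in Treg10- (SD, n = 2 each). *Cd4* averaged 192 ± 3.96 FPKM in Treg10+ and 184 ± 16.2 FPKM in Treg10-, and *Cd5* 216 ± 1.65 FPKM in Treg10+ and 210.0 ± 5.34 FPKM in Treg10-. At an unadjusted p under 0.05, 6 of the 46 other pathway genes were higher and 9 lower, without a count over all genes. Of these 46 genes 0 were called higher and 1 lower. That gene was *Trat1*, a transmembrane adaptor that associates with the receptor complex, at 55.5 and 48.1 FPKM in Treg10+ and 141 and 115 FPKM in Treg10- (log2 fold change -1.30, SE 0.15, limma adjusted p = 0.0186). *Cd2*, an adhesion receptor of T cells, stood at -0.23 (limma adjusted p = 0.687) and *Ptprc* at -0.04 (limma adjusted p = 0.951).

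The difference between the reporter effect in ILC2 and that in Treg cells was tested itself, in a limma fit of the 10 libraries. It was called for *Cd3g*, at -2.01 on the log2 scale (SE 0.23, interval -2.52 to -1.5, limma adjusted p = 5.02e-04), and for *Cd3e*, at -2.07 (SE 0.49, interval -3.16 to -0.98, limma adjusted p = 0.0244). That is 2 of 9 genes lower and none higher, with *Cd4* and *Cd5* in the fit only through the Treg libraries, where 1.56% of the 12475 genes tested were lower and 6.53% higher. At an unadjusted p under 0.05, 4 were lower and none higher, again without a count over all genes. The *Cd3e* call was lost when any of ILC210 02, ILC2act 03, ILC2act 07 or the 4 Treg libraries was left out (limma adjusted p from 0.0508 to 0.111), whereas *Cd3g* was called in each of these fits. The difference for *Zap70* was -0.82 (limma adjusted p = 0.00406), under the fold of 2, and that for *Cd247* was -1.20 (interval -2.16 to -0.25, limma adjusted p = 0.130). For *Lat*, *Lck* and *Cd3d* it ranged from -0.30 to 0.45 and was not called. *Cd4* and *Cd5* were at the floor in all 6 ILC2 libraries, so their difference only mirrors the Treg values and says nothing of ILC2. Among 46 other pathway genes only *Sit1* was called, at -2.81 (limma adjusted p = 7.8e-05), while *Sla* stood at -0.32 and *Ptprc* at -0.23.

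Set against Treg cells in the same table, ILC2 fell into a graded pattern by gene. All 9 genes were lower in ILC210 than in Treg10+, where 7.25% of the 12475 genes tested were called lower and 12.5% higher. In ILC2act against Treg10- 8 were called lower, where 8.53% of all genes were lower and 7.89% higher. *Cd4* and *Cd5* passed the filter on low values only through the Treg libraries, where they are high, so these counts are a description. Both comparisons come from the fit of 10 libraries that also gave the difference of reporter effects, and each shares its ILC2 and Treg libraries with the comparisons above.

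*Cd3e* and *Cd3d* were among the genes with the largest folds. *Cd3e* was 378-fold lower in ILC210 than in Treg10+ and 90.1-fold lower in ILC2act than in Treg10-, and *Cd3d* was 284-fold lower in ILC210 than in Treg10+ and 388-fold lower in ILC2act than in Treg10-. *Cd3d* and *Cd3e* values under 1 FPKM were set to 1, as were all ILC2 values of *Cd4* (192-fold for ILC210 and 184-fold for ILC2act on that scale) and *Cd5* (216-fold for ILC210 and 210-fold for ILC2act), so these folds are those of the floored scale. *Cd247* was 63.2-fold lower in ILC210 than in Treg10+ and 27.4-fold lower in ILC2act than in Treg10-. *Cd3g* differed less than the other chains, at 24.9-fold lower in ILC210 (log2 fold change -4.64, SE 0.16) and 6.18-fold lower in ILC2act (log2 fold change -2.63, SE 0.16).

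*Zap70* and *Lat* differed least. *Lck* was 12.5-fold lower in ILC210 than in Treg10+ and 12.9-fold lower in ILC2act than in Treg10-, and *Lat* was 4.87-fold lower in ILC210 than in Treg10+ and 3.95-fold lower in ILC2act than in Treg10-. *Zap70* was 2.08-fold lower in ILC210 than in Treg10+ (limma adjusted p = 1.78e-05), a call that was lost without ILC210 08 or Treg10+ 06 (log2 fold change -0.99 each) or under leukocyte scaling (-0.40, with the median of all genes at 0.62). In ILC2act against Treg10- its log2 fold change was -0.24 (interval -0.45 to -0.02, limma adjusted p = 0.0932), and it turned to 0.28 when libraries were scaled to leukocyte genes, which moved the median of all genes to 0.37. *Zap70* averaged 62.1 ± 6.06 FPKM in ILC210, 94.3 ± 2.08 FPKM in ILC2act (SD, n = 3 each), 129 ± 8.78 FPKM in Treg10+ and 111 ± 2.02 FPKM in Treg10- (SD, n = 2 each).

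Of the 46 other pathway genes, 19 were called lower in ILC210 than in Treg10+ and 19 in ILC2act than in Treg10-, with none higher, and medians of -0.81 and -0.73 against 0 for all genes. At an unadjusted p under 0.05, 2 were higher in each comparison and 33 and 29 lower, without a count over all genes. *Cd6*, a relative of *Cd5*, stood at -8.48 in ILC210 against Treg10+ and -7.72 in ILC2act against Treg10-, *Cd2* in the same order at -5.13 and -5.96, and *Cd28*, the costimulatory receptor, at -5.02 and -4.68. *Sit1* stood at -6.31 in ILC210 against Treg10+, and *Cd8b1*, a coreceptor chain, at -3.87 in ILC2act against Treg10-. *Cd8b1* lay at 14.5 ± 2.44 FPKM in Treg10+ and 14.6 ± 0.271 FPKM in Treg10- (SD, n = 2 each). It passed the filter on low values only through these Treg libraries, so its fold is a description. The most highly expressed genes not called were *Sla*, at 0.58, and *Icos*, at -0.86, in ILC210 against Treg10+, and *Sla*, at 0.90, and *Ptprc*, at -0.95, in ILC2act against Treg10-.

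Over the 10 libraries, the gene whose log2 FPKM followed *Cd3g* most closely was *Sit1* (Pearson r = 0.997), which averaged 0.675 FPKM in ILC210, 8.21 in ILC2act, 79.8 in Treg10+ and 92.7 in Treg10-. The next 4 of 12475 genes were *9930111J21Rik2* (0.993), *Camk4* (0.986), *Zdhhc20* (0.985) and *Trp53inp1* (0.985). *Cd3e* was followed by *Tnfrsf4* (0.996), *Cd247* of the same receptor complex (0.995), *Ikzf4* (0.992), *BC017643* (0.992) and *Nif3l1* (0.991). *Tnfrsf4*, which encodes OX40, averaged 4.88 FPKM in ILC210, 13.9 in ILC2act, 898 in Treg10+ and 659 in Treg10-. These r are a description, since the 10 points fall into ILC2 and Treg libraries that set most of each value.

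In the comparison of ILC2IL-33 with ILC2PBS, which asks what IL-33 injection changes in lung ILC2, *Cd3d* and *Cd3e* were lower and the remaining genes moved by less than the fold required. Of the 9 genes 8 were tested, 2 were called lower and none higher, where 18.0% of the 12565 genes tested were called lower and 8.22% higher. The share of 2 in 8 is near the background of lower genes. At an unadjusted p under 0.05, 1 was higher and 3 were lower, without a count over all genes. The median of the 8 was -0.32, against -0.06 for all genes tested.

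*Cd3d* read 0.445 and 1.46 FPKM in ILC2IL-33 and 4.54, 4.23 and 5.25 FPKM in ILC2PBS. The groups did not overlap, and the log2 fold change was -1.95 (SE 0.28, interval -2.59 to -1.30, limma adjusted p = 0.00138). *Cd3d* passed the filter on low values only through ILC2PBS, where it is high, so its call is a description. *Cd3e* read 2.08 and 1.89 FPKM in ILC2IL-33 and 4.63, 4.33 and 10.1 FPKM in ILC2PBS, where the library nA stood above the other two. Its log2 fold change was -1.57 (SE 0.40, interval -2.5 to -0.63, limma adjusted p = 0.020), and the call was lost without the library Expand or without WT (limma adjusted p = 0.0835 and 0.113). *Cd4* read 0.122 and 0 FPKM in ILC2IL-33 and 0.964, 1.07 and 1.17 FPKM in ILC2PBS, and *Cd5* 0.431 and 0.0780 FPKM in ILC2IL-33 and 0.730, 0.783 and 1.13 FPKM in ILC2PBS. These T cell transcripts were low throughout. Each PBS value was above both IL-33 values, which with so few libraries is a description. How many of all genes separate in this way was not counted. *Lat* separated in the same direction and *Zap70* in the other. *Cd4* passed the filter on low values only through PBS libraries, so its values are a description. Its log2 fold change was -0.11 on the floored scale (limma adjusted p = 0.706) and -2.97 on log2(FPKM + 0.1), where it was called. *Cd5* was not tested.

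Genes of other cells were higher in ILC2PBS as well. The CD8 T cell genes *Cd8a* and *Cd8b1* summed to 0.170 to 0.331 FPKM in ILC2IL-33 and to 2.75 to 5.94 FPKM in ILC2PBS. The 8 macrophage and monocyte genes summed to 31.5 to 33.2 FPKM in ILC2IL-33 and 1730 to 3550 FPKM in ILC2PBS, and the 6 epithelial genes to 217 to 480 FPKM in ILC2IL-33 and 6020 to 25800 FPKM in ILC2PBS. Their part in the *Cd3d* and *Cd3e* values was not tested. The Y-linked *Ddx3y* read 0.0113 and 0.153 FPKM in ILC2IL-33 and 5.47, 8.25 and 0.0340 FPKM in ILC2PBS 1, 2 and nA. *Xist*, a transcript of female cells, read 42.5 and 48.1 FPKM in ILC2IL-33 and 4.15 to 19.5 FPKM in ILC2PBS. The sex of the mice thus differed between the groups, and its part in these values was not tested. Against the PBS library nA alone, the log2 fold change was -2.12 for *Cd3d* and -2.35 for *Cd3e*, given as values without a test, since 1 library has no spread and nA was the highest of the 3 in both genes.

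*Cd3g* did not follow *Cd3d* and *Cd3e*. It read 58.6 and 98.6 FPKM in ILC2IL-33 and 104, 82.3 and 108 FPKM in ILC2PBS, with overlap and a log2 fold change of -0.36 (interval -0.96 to 0.24, limma adjusted p = 0.312). *Cd247* read 12.2 and 12.3 FPKM in ILC2IL-33 and 14.2, 13.5 and 16.7 FPKM in ILC2PBS (-0.27, limma adjusted p = 0.308). *Lck* read 33.6 and 31.5 FPKM in ILC2IL-33 and 30.5, 22.3 and 41.5 FPKM in ILC2PBS (0.09, limma adjusted p = 0.805).

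*Zap70* and *Lat* stood on opposite sides. *Zap70* read 106 and 93.2 FPKM in ILC2IL-33 and 68.3, 54.0 and 81.1 FPKM in ILC2PBS, without overlap but not past the test (log2 fold change 0.57, SE 0.21, limma adjusted p = 0.0726). *Lat* read 66.0 and 70.0 FPKM in ILC2IL-33 and 110, 92.9 and 115 FPKM in ILC2PBS, also without overlap, and its log2 fold change of -0.64 (SE 0.17, limma adjusted p = 0.0249) was under the fold of 2. When libraries were scaled to leukocyte genes, which summed to 3920 to 4120 FPKM in ILC2IL-33 and 2290 to 3170 FPKM in ILC2PBS, the median of all genes moved to -0.46 and *Lat* was called at -1.06 (limma adjusted p = 0.00432).

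**Figure D4:**
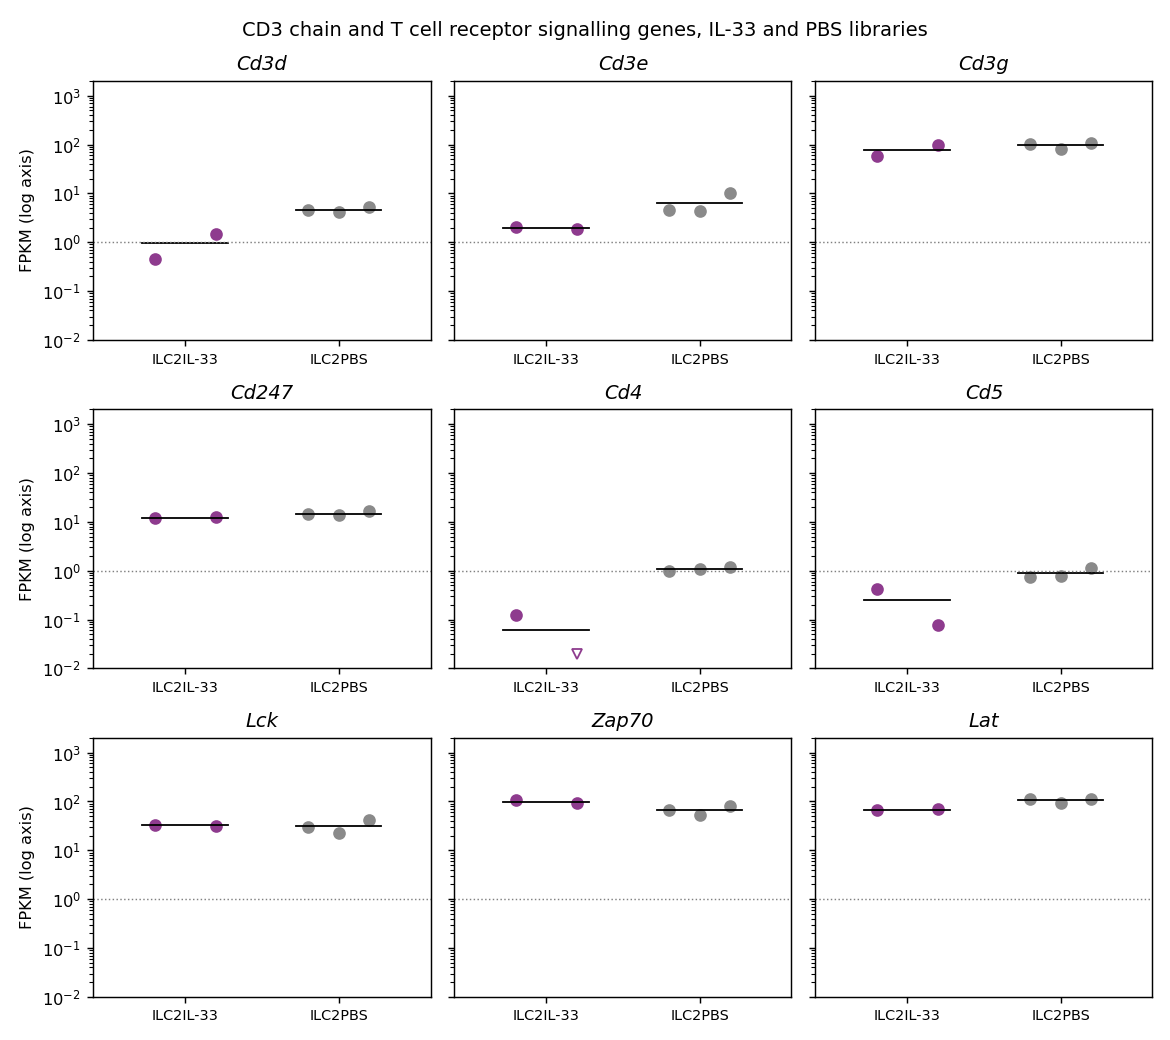
FPKM (log axis) of the 9 genes in the libraries of ILC2IL-33 and ILC2PBS (x axis), with points for libraries, a line for the group mean, an open triangle for a value of 0 drawn at the bottom, and a dotted line at 1 FPKM. *Cd3d* lies at 0.445 and 1.46 FPKM in ILC2IL-33 and at 4.23 to 5.25 FPKM in ILC2PBS, while the *Cd3g* points overlap.

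Of the 46 other pathway genes 45 were tested in this comparison, with 6 called higher, 5 lower and 34 not called and a median of 0.14. Over all genes 8.22% were called higher and 18.0% lower, so these counts set the pathway apart in neither direction. *Trat1* rose most, to 13.3 and 16.0 FPKM in ILC2IL-33, against 0.269, 0.466 and 1.75 FPKM in ILC2PBS (log2 fold change 3.60, SE 0.33, limma adjusted p = 1.77e-04). *Sla* averaged 430 ± 9.38 FPKM in ILC2IL-33 and 127 ± 27.3 FPKM in ILC2PBS (log2 fold change 1.79, limma adjusted p = 7.43e-04). The other genes called higher were *Ptpn22*, *Txk*, *Tespa1* and *Sla2*, at 1.00 to 1.29. *Syk* fell to 1.76 ± 0.571 FPKM in ILC2IL-33, against 8.89 ± 1.41 FPKM in ILC2PBS (-2.36, limma adjusted p = 7.98e-04), and *Cd8b1* to 0.226 ± 0.149 FPKM, against 3.69 ± 1.27 FPKM in ILC2PBS (SD, n = 2 and 3, log2 fold change -1.81, limma adjusted p = 0.0059). The remaining genes called lower were *Sit1* (-1.25), *Pag1* (-1.12) and *Themis* (-1.03), of which *Sit1* read 3.87 and 5.05 FPKM in ILC2IL-33 and 10.4, 7.76 and 14.5 FPKM in ILC2PBS. The 6 genes outside the rule for named genes (*Ptpn22*, *Txk*, *Tespa1*, *Sla2*, *Pag1* and *Themis*) were named after their values were seen, as was *Sit1* here. *Cd8b1* passed the filter on low values only through ILC2PBS, and *Trat1* only through ILC2IL-33, so both calls are a description. *Icos* stood at -0.27 and *Ptprc* at 0.14 without a call.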

How the data were processed

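The authors aligned reads to GRCm38 with TopHat2 2.1.0 and, with Cufflinks 2.2.1, made FPKM values per gene, normalized to transcript length and mapped reads, which they deposited in 2 tables, and each was analysed by itself. The table of 10 libraries mixes these FPKM with other entries: it was used without 312 genes marked as low data and 5 that lack a value, and its 0.001 was read as 0. T cell receptor constant region genes were not analysed here.

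FPKM were floored at 1 as in the study's methods, and a gene entered a test if it exceeded 1 FPKM in at least the number of libraries of the smaller group. Tests used limma 3.58.1 under R 4.3.3, with a variance trend, and were first tried on simulated data. Ratios were tested in Python 3.11.15. The labels do not say that libraries come from separate animals, so p-values measure the spread between these libraries. ILC210 and ILC2act libraries with consecutive numbers deviated together (r = 0.35, 0.30 and 0.19 over 11564 genes, other pairs -0.26 to 0.02), and the pairing as a block was an alternative. Others were log2(FPKM + 1), log2(FPKM + 0.1), no filter, a mean of at least 5 FPKM, quantile normalization, scaling to leukocyte genes, a per-gene equal-variance test, a tag block, a fit of all 10 libraries and each library left out.

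The 9 genes and all lists were chosen with earlier results of these data known. The text names all 9 and, per comparison, up to 4 pathway genes of largest change past the threshold, up to 2 uncalled ones of highest mean, and the 5 genes most like *Cd3e* and *Cd3g*. Sequences and loci are from RefSeq (GRCm38.p6), overlaps from GENCODE.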

Additional observations from a re-analysis of the deposited data

Results flagged for a closer look

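The effect of the reporter differed between ILC2 and Treg cells for 2 of the 9 genes, by the limma test of the difference itself over 10 libraries. For *Cd3g* the difference was -2.01 on the log2 scale (adjusted p = 5.02e-04), from -2.26 in ILC210 against ILC2act and -0.26 in Treg10+ against Treg10-. For *Cd3e* it was -2.07 (adjusted p = 0.0244), from -2.01 in ILC210 against ILC2act and 0.06 in Treg10+ against Treg10-. In both genes all 3 ILC210 libraries were below all 3 ILC2act libraries, and the Treg10+ and Treg10- libraries overlapped. Groups of 2 or 3 libraries were too small to look for single libraries far from the rest.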

How the results depend on the processing

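Of ILC2IL-33 against ILC2PBS, 2 of the genes were called in the report, 1 with no filter on low values, 0 at a mean of at least 5 FPKM, which leaves *Cd3d* and *Cd3e* untested, 1 after quantile normalization, 0 in the equal-variance test, 1 to 2 with a library left out, and 3 on log2(FPKM + 0.1) and under leukocyte scaling. Of ILC210 against ILC2act, 3 were called, 1 with no filter (*Cd3g*), 1 at a mean of at least 5 FPKM (*Cd3g*), 0 in the equal-variance test (*Cd3g* adjusted p = 0.0834) and 2 to 3 with a library left out, where *Cd3g* and *Cd3e* kept their calls. Of the difference of reporter effects, 2 were called, 1 with no filter, 1 under leukocyte scaling, 1 to 2 with a library left out and 3 after quantile normalization. In Treg10+ against Treg10- the count was 0 and in ILC2act against Treg10- 8 in every setting, and in ILC210 against Treg10+ 8 or 9. The replicate block by consecutive numbers kept all 3 calls in ILC210 against ILC2act (*Cd3g*, *Cd3e* and *Cd247*), added 0 and was run for that comparison only. With the tag of the sample names as a block 3 were called there and 0 in Treg10+ against Treg10-, where *Cd3g* reached an adjusted p of 0.0156 at -0.26, under the fold of 2. The cause of these changes was not tested, apart from genes left untested.

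Signs turned in genes that were not called. In ILC2IL-33 against ILC2PBS *Cd4* was 0.13 after quantile normalization, *Lck* -0.33 under leukocyte scaling, -0.35 without PBS 1 and 2 and -0.13 to 0.32 with a library left out, and *Cd3g* -0.73 to 0.02. In ILC210 against ILC2act *Cd3d* was -0.40 after quantile normalization and *Lck* 0.10 under leukocyte scaling. In Treg10+ against Treg10- *Cd5* was -0.01 after quantile normalization, and with a library left out *Cd4* ranged from -0.03 to 0.15, *Cd247* from -0.04 to 0.23 and *Cd3e* from -0.04 to 0.15. In ILC2act against Treg10- *Zap70* was 0.28 under leukocyte scaling. In the difference of reporter effects *Cd4* was 0.27 and *Cd5* 0.05 on log2(FPKM + 1), *Cd4* 1.37 and *Cd5* 0.27 on log2(FPKM + 0.1), *Cd3d* -0.02 and *Lck* -0.15 after quantile normalization, and with a library left out *Lck* ranged from -0.07 to 0.13 and *Cd4* from -0.15 to 0.03.

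Within ILC210 and Treg10+ alone the ratios differed by 3.93 (*Cd3g* over *Cd3e*), 2.58 (*Cd247* over *Cd3e*), 3.51 (*Cd3g* over *Cd3d*) and 0.41 (*Cd3d* over *Cd3e*, reversed), and within ILC2act and Treg10- by 3.87, 1.72, 5.97 and -2.11. With 3 against 2 libraries the exact permutation p was 0.20, the smallest possible. Ratios with *Cd3d* rest on ILC2 values near the floor of 1 FPKM.

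Counts over all genes moved more: higher 255 to 1655 and lower 189 to 2966 in ILC2IL-33 against ILC2PBS (reported 1033 and 2267), and 18 to 1274 and 4 to 296 in ILC210 against ILC2act (1069 and 121). The share of calls that were higher was 31.3% in ILC2IL-33 against ILC2PBS, 49.3% after quantile normalization and 15.4% under leukocyte scaling, and in ILC210 against ILC2act 89.8%, 73.3% and 93.9%. Depth limits *Cd3d*, *Cd4* and *Cd5* in ILC2, whose values are near or below 1 FPKM.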

Other observations

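Transcripts of other adaptor chains, which like the ζ chain signal for receptors without motifs of their own, were also measured in the ILC2 libraries. *Fcer1g*, the common γ chain of Fc receptors, read 34.1, 43.5 and 54.8 FPKM in ILC210 and 11.1, 10.8 and 9.17 FPKM in ILC2act (log2 fold change 2.07, SE 0.17, limma adjusted p = 7.3e-05), and *Tyrobp*, which encodes DAP12, 29.6, 27.5 and 69.9 FPKM in ILC210 and 2.87, 6.39 and 2.70 FPKM in ILC2act (3.39, limma adjusted p = 5.73e-04). Both rose in ILC210, where the CD3 chain genes *Cd3g*, *Cd3e* and *Cd247* fell. *Hcst*, which encodes DAP10, averaged 185 ± 31.8 FPKM in ILC210 and 247 ± 42.4 FPKM in ILC2act (SD, n = 3 each) and was not called (-0.42, limma adjusted p = 0.132). In ILC2IL-33 *Fcer1g* read 12.9 and 14.5 FPKM, against 49.0, 49.3 and 31.6 FPKM in ILC2PBS (-1.64, limma adjusted p = 0.00152), and *Tyrobp* 2.07 and 1.73 FPKM, against 71.5, 77.9 and 46.3 FPKM in ILC2PBS (-5.07, limma adjusted p = 4.49e-05).

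Among Treg cells *Tyrobp* read 63.6 and 70.6 FPKM in Treg10+ and 8.11 and 18.8 FPKM in Treg10- (2.44, limma adjusted p = 0.0387), and *Fcer1g* 49.3 and 56.3 FPKM in Treg10+ and 3.85 and 15.5 FPKM in Treg10- (2.77, limma adjusted p = 0.0851). Macrophages express both genes strongly, and the macrophage and monocyte genes moved the same way in each comparison, at 615 to 1420 FPKM in ILC210 and 49.4 to 79.4 FPKM in ILC2act, at 31.5 to 33.2 FPKM in ILC2IL-33 and 1730 to 3550 FPKM in ILC2PBS, and at 239 to 278 FPKM in Treg10+ and 25.8 to 69.2 FPKM in Treg10-. Their part in these values was not tested.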
